A study of Danio rerio with 6 samples.

Results

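Fgf8a and genes of the Fgf signaling pathway were followed in sorted *pax8*:DsRed-positive cells of Dlx3b/4b-depleted and wild-type zebrafish embryos. The rule that defined the set named 4 Ensembl identifiers together with a chromosome for each, and dropped any identifier that the deposited table places elsewhere. Of the 32266 listed genes, 2 met it, *fgf8a* (ENSDARG00000003399, chromosome 13) and *dusp6* (ENSDARG00000070914, chromosome 25). The other 2 identifiers, ENSDARG00000018303 and ENSDARG00000044511, lie on chromosomes 12 and 6 in the table, whereas the rule gave 3 and 9, and were dropped. The gene name table pairs them with *etv4* and *etv5b*, so both were described as Fgf targets within a wider list of Fgf pathway genes. That list holds 49 symbols (ligands, receptors, transducers, targets and inhibitors), of which 48 were matched to an identifier.

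Fgf ligands are secreted proteins that bind receptor tyrosine kinases and activate the Ras-Erk cascade inside the receiving cell. Ets-domain transcription factors such as *etv4* and *etv5b* are switched on by the pathway and are widely used as readouts of its activity. Dual-specificity phosphatases, Sprouty and Spred proteins and Il17rd (also known as Sef) are induced as well and act as feedback inhibitors. In zebrafish, Fgf3 and Fgf8a from the hindbrain and neighbouring mesoderm induce the otic-epibranchial progenitor domain (OEPD), the common precursor of the otic and epibranchial placodes.

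The RNAseq libraries came from embryos at 6 to 9 somites that carried 1 copy of the *pax8*:DsRed transgene, which marks the OEPD and the nephric anlagen. The Dlx3b/4b-depleted group (3 samples) had received antisense morpholinos against *dlx3b* and *dlx4b* at the one-cell stage, and the wild-type group (3 samples) carried no knockdown. The wild-type line was AB, and no control injection is described, so effects of Dlx3b/4b loss and of injection cannot be told apart. The study's methods call the samples biological replicates and mention an effect of the clutch, but the labels do not tie a sample number to a clutch. P-values of the main fit measure the spread between these samples that remains once differences between replicate numbers are fitted.

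The 3 Dlx3b/4b-depleted libraries held between 23846555 and 26250129 counts in genes, and the 3 wild-type libraries between 27373965 and 28480101. A gene with 3 counts thus had 0.105 to 0.126 CPM, the unit of counts scaled to a common library total. This floor covers counting error only. It uses plain library totals, whereas the CPM values of genes use totals adjusted between libraries by TMM scaling. Levels of *dlx3b* (listed as DLX3, ENSDARG00000014626) were 51.3, 78.7 and 180 CPM in Dlx3b/4b-depleted replicates 1, 2 and 3, and 48.0, 144 and 30.2 CPM in wild-type replicates 1, 2 and 3. Those of *dlx4b* were 4.26, 8.47 and 23.9 CPM in Dlx3b/4b-depleted samples and 6.16, 25.2 and 3.84 CPM in wild-type samples. Both targeted genes thus varied within the groups, and RNA counts do not measure the protein that a morpholino depletes. Wild-type replicate 2 stood apart from the other samples, with 4.63% of its counts on mitochondrial genes against 2.02% to 3.09% elsewhere. The summed level of the 7 matched OEPD markers of 8 (*pax8*, *foxi1*, *dlx3b*, *dlx4b*, *gata3* and 2 SOX9 genes) was 601, 519 and 737 CPM in Dlx3b/4b-depleted replicates 1, 2 and 3, and 512, 1063 and 449 CPM in wild-type replicates 1, 2 and 3. Of these markers 1 was called, a SOX9 gene (ENSDARG00000043923) with 26.8, 34.6 and 54.9 CPM in Dlx3b/4b-depleted samples and 106, 437 and 89.5 CPM in wild-type samples (log2 fold change −2.11, adjusted p = 0.0317, edgeR), which passed in 6 of the 9 fits with samples left out. Such fits left out either 1 replicate number from both groups, with differences between replicate numbers still fitted, or 1 sample, without fitting them. They thus differed in model as well as in samples. The marker of the sort itself, *pax8*, had 227 to 415 CPM in every sample. Forebrain markers summed to 6.52 to 32.6 CPM and muscle markers to 10.6 to 17.4 CPM over all samples.

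*fgf8a* showed no difference between the groups beyond the spread of the samples. The gene lies on the forward strand of chromosome 13, at 28364969 to 28371535, with 5 merged exons of 2238 bases in total. It had 374, 614 and 452 raw counts in Dlx3b/4b-depleted replicates 1, 2 and 3, and 532, 342 and 383 in wild-type replicates 1, 2 and 3. Scaled to library size, these were 14.6, 23.1 and 19.1 CPM in Dlx3b/4b-depleted samples and 18.9, 12.8 and 13.1 CPM in wild-type samples. Dlx3b/4b-depleted replicates 2 and 3 lay above all wild-type samples, although wild-type replicate 1 almost reached Dlx3b/4b-depleted replicate 3. Dlx3b/4b-depleted replicate 1 fell within the wild-type range, so the groups overlapped. The group means were 18.9 ± 4.26 CPM in Dlx3b/4b-depleted samples and 14.96 ± 3.46 CPM in wild-type samples (SD, n = 3 each). This gave a log2 fold change of 0.34 with a standard error of 0.23 (95% interval −0.17 to 0.86) and an adjusted p of 0.414 in edgeR's quasi-likelihood test. A rise of up to 0.86 on the log2 scale is therefore within the interval. Replicates varied by 22.5% in Dlx3b/4b-depleted samples and 23.1% in wild-type samples (SD relative to the mean), against 5.41% that counting error alone gives at the lowest count of 342.

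**Figure D1:**
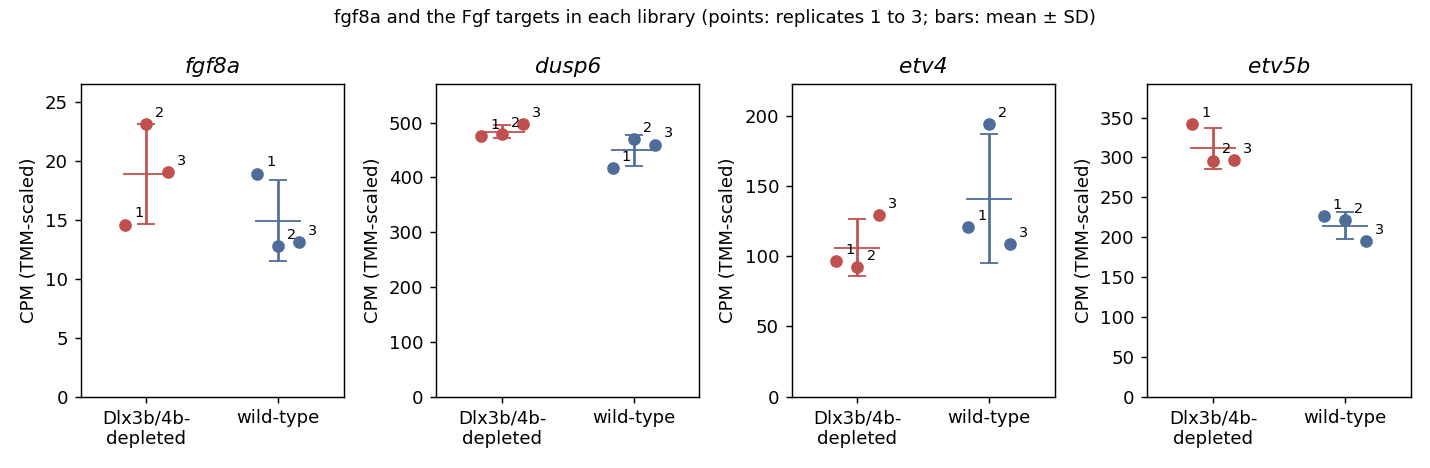
Levels of *fgf8a*, *dusp6*, *etv4* and *etv5b* in CPM (vertical axes start at 0) in 3 Dlx3b/4b-depleted samples (left, red) and 3 wild-type samples (right, blue). Points are numbered by replicate, and bars give the mean ± SD. The groups overlap for *fgf8a* and *etv4*, with wild-type replicate 2 highest for *etv4* at 194 CPM, whereas all Dlx3b/4b-depleted samples are above all wild-type samples for *etv5b*.

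Samples left out changed the size of the *fgf8a* difference and not its call. The log2 fold change ranged from 0.09 without replicate 2 of both groups to 0.70 without replicate 1 of both groups, and none of the 9 such fits called the gene. One antisense gene, si:ch211-194i8.3, overlaps an exon of *fgf8a*, and it had 0 to 3 counts per sample. Cell types known to express *fgf8a* were looked at through their markers. Of 6 midbrain-hindbrain boundary markers, 2 were matched, *wnt1* and *pax5*, with a summed level of 0.977, 2.56 and 2.998 CPM in Dlx3b/4b-depleted samples and 1.03, 1.27 and 1.37 CPM in wild-type samples. The 5 hindbrain markers summed to 207 to 229 CPM in Dlx3b/4b-depleted samples and 197 to 229 CPM in wild-type samples. The 6 paraxial mesoderm markers summed to 309, 257 and 222 CPM in Dlx3b/4b-depleted samples and 225, 186 and 214 CPM in wild-type samples. Much of this sum came from *tbx16*, with 202, 156 and 128 CPM in Dlx3b/4b-depleted samples and 118, 81.4 and 125 CPM in wild-type samples. *tbx16* was called higher (log2 fold change 0.58, adjusted p = 0.0744, edgeR), a call that held in 3 of the 9 fits with samples left out. No other tested marker of that list was called, with log2 fold changes from −0.18 (*msgn1*) to 0.32 (*tbx6*). The part of these cell types in the *fgf8a* values was not tested. In RNA from pooled sorted cells, fewer cells of a type and less RNA per cell cannot be told apart.

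*dusp6*, which encodes a phosphatase that inactivates Erk and is a feedback inhibitor of Fgf signaling, was the most abundant gene of the pathway list per exon length in Dlx3b/4b-depleted samples. It lies on the reverse strand of chromosome 25, at 18229898 to 18234103, with 4 merged exons of 2970 bases, and no exon overlaps another gene. The raw counts were 12190, 12704 and 11765 in Dlx3b/4b-depleted replicates 1, 2 and 3, and 11727, 12578 and 13400 in wild-type replicates 1, 2 and 3. After scaling, the level was 476, 478 and 497 CPM in Dlx3b/4b-depleted samples and 418, 470 and 460 CPM in wild-type samples. The groups did not overlap, although Dlx3b/4b-depleted replicate 1 and wild-type replicate 2 were close to each other. Groups without overlap were found for 31.5% of all tested genes. For *dusp6* edgeR gave a log2 fold change of 0.11 with a standard error of 0.10 (95% interval −0.11 to 0.32) and an adjusted p of 0.544. It was not called in any of the 9 fits with samples left out, where it ranged from 0.06 to 0.16. Thus 0 of the 2 genes that met the rule were called by edgeR or by DESeq2, and 0 had an unadjusted p below 0.05 in edgeR (0.167 for *fgf8a* and 0.283 for *dusp6*), whereas 10.9% of the 17526 genes in the test were called (adjusted p under 0.1).

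Of the Ets-domain factors, *etv5b* was higher in Dlx3b/4b-depleted samples, and *etv4* was not called. *etv5b*, on the reverse strand of chromosome 6 at 13902582 to 13910699, had 341, 296 and 297 CPM in Dlx3b/4b-depleted replicates 1, 2 and 3, and 226, 222 and 195 CPM in wild-type replicates 1, 2 and 3. All Dlx3b/4b-depleted samples were above all wild-type samples. The difference of 0.54 ± 0.10 on the log2 scale (fold change ± standard error), or 1.45-fold, passed the threshold with an adjusted p of 0.0175 in edgeR. The study also names *etv5b* among the upregulated genes of its own RNAseq comparison. It did not see this rise by in situ hybridization in *dlx3b/4b* mutant embryos. It proposes that so moderate a rise escapes that method. The call was lost without replicate 1 of both groups (log2 fold change 0.51, adjusted p = 0.285, edgeR), a fit in which 185 genes were called in all, and it held in the other 8 fits with samples left out. The *pax8*:DsRed transgene also marks nephric cells, and the 5 matched nephric markers of 7 summed to 912, 706 and 769 CPM in Dlx3b/4b-depleted replicates 1, 2 and 3, and 690, 728 and 640 CPM in wild-type replicates 1, 2 and 3. Much of this sum came from *pax8*, which is also an OEPD marker, and without it the nephric sum was 497, 441 and 447 CPM in Dlx3b/4b-depleted samples and 440, 425 and 413 CPM in wild-type samples. The list did not move one way, as *osr1* was called higher (log2 fold change 0.76, adjusted p = 0.00839, edgeR) and *cdh17* lower (−1.14, adjusted p = 0.00442, edgeR), each also in all 9 fits with samples left out. Dlx3b/4b-depleted replicate 1, the highest sample for *etv5b*, was highest for both nephric sums and for the summed paraxial mesoderm markers. Much of that mesoderm sum was *tbx16* (202 CPM in this sample). The same sample was lowest for *cdh17*, at 25.4 CPM. The part of either list in the *etv5b* value was not tested. The related *etv5a* had 129, 119 and 146 CPM in Dlx3b/4b-depleted samples and 109, 116 and 104 CPM in wild-type samples, with a log2 fold change of 0.25 that did not pass the threshold (adjusted p = 0.223, edgeR).

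*etv4*, on the forward strand of chromosome 12 at 27444735 to 27477334, had 96.6, 92.4 and 129 CPM in Dlx3b/4b-depleted replicates 1, 2 and 3, and 121, 194 and 108 CPM in wild-type replicates 1, 2 and 3. The highest sample of each group was Dlx3b/4b-depleted replicate 3 and wild-type replicate 2, and these were also the samples of each group with the highest summed OEPD markers, 737 and 1063 CPM (682 and 626 CPM without the called SOX9 gene). The part of those markers in the *etv4* values was not tested. Its difference was −0.38 ± 0.21 on the log2 scale (95% interval −0.84 to 0.09), with an adjusted p of 0.312 in edgeR. Without wild-type replicate 2 and without the replicate block it was −0.11 (adjusted p = 0.686, edgeR), and without replicate 2 of both groups it was −0.03 (adjusted p = 0.956, edgeR). Without replicate 3 of both groups it was −0.67 and was called (adjusted p = 0.000941, edgeR). In that fit 22.3% of all tested genes were called, against 10.9% in the main fit. The *etv4* value thus depended on which libraries were used. The antisense gene that overlaps *etv4*, si:dkey-69o7.2, had 0 counts in all samples. The remaining gene of the target list, *flrt3*, which encodes a membrane protein that associates with Fgf receptors in *Xenopus*, had 559, 596 and 552 CPM in Dlx3b/4b-depleted samples and 671, 641 and 721 CPM in wild-type samples. Its log2 fold change of −0.25 did not pass the threshold (adjusted p = 0.180, edgeR), although the groups did not overlap. Without the replicate block *flrt3* was called lower at the same fold change (adjusted p = 0.0926, edgeR).

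**Figure D2:**
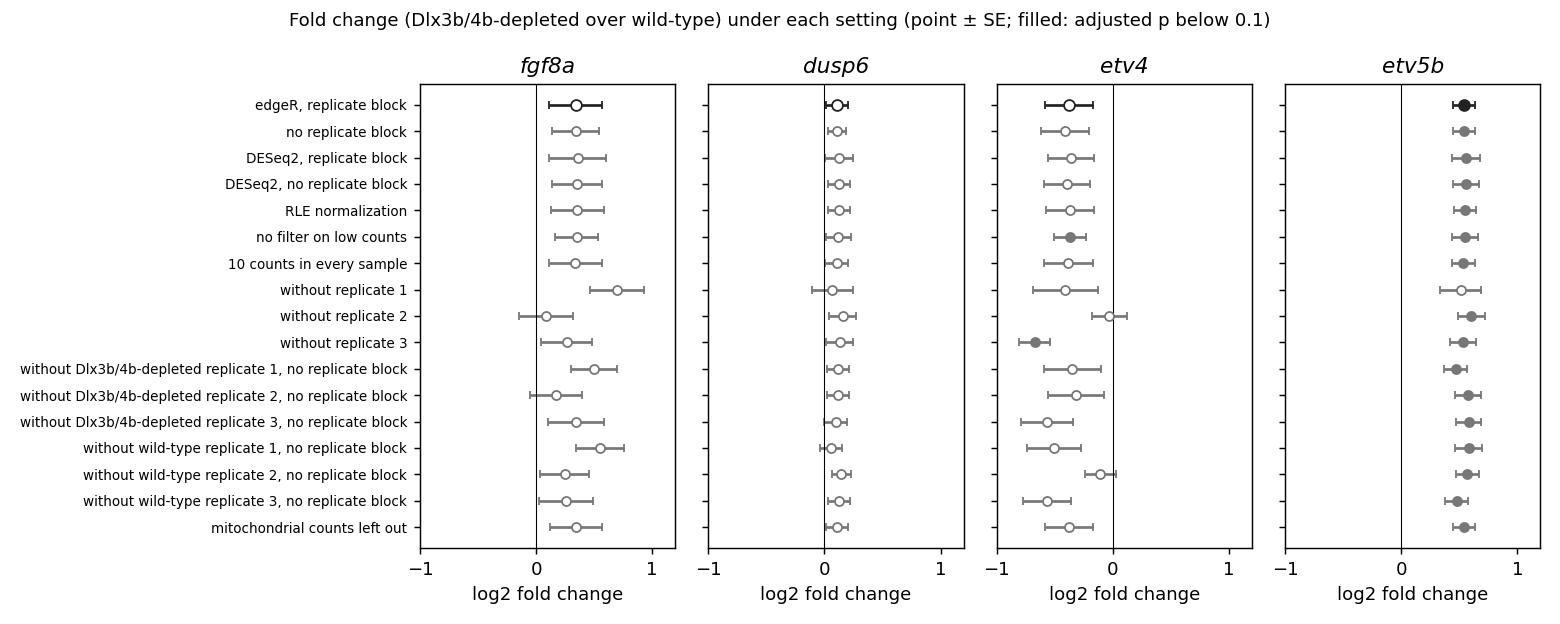
Log2 fold changes (Dlx3b/4b-depleted over wild-type) of *fgf8a*, *dusp6*, *etv4* and *etv5b* under the main setting (top row, edgeR with the replicate block) and the alternatives, as points with standard errors, filled where the adjusted p was below 0.1. The *fgf8a* points spread between 0.09 and 0.70 and those of *etv4* between −0.67 and −0.03, whereas *dusp6* stays between 0.06 and 0.16 and *etv5b* between 0.47 and 0.61.

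Levels were compared between genes per exon length, as CPM per kilobase of merged exons (RPKM). The level of *fgf8a* was 8.46 ± 1.90 RPKM in Dlx3b/4b-depleted samples and 6.68 ± 1.55 RPKM in wild-type samples (SD, n = 3 each), above 61.3% of the tested genes. *dusp6* had 163 ± 3.81 RPKM in Dlx3b/4b-depleted samples and 151 ± 9.35 RPKM in wild-type samples, above 97.7% of the tested genes. In wild-type samples *flrt3* (160 ± 9.59 RPKM) and *dusp6* did not differ beyond their spread, whereas in Dlx3b/4b-depleted samples *flrt3* had 135 ± 5.59 RPKM. *etv5b* had 110 ± 9.15 RPKM in Dlx3b/4b-depleted samples and 75.5 ± 6.001 RPKM in wild-type samples. *etv4* followed, with 53.7 ± 10.2 RPKM in Dlx3b/4b-depleted samples and 71.4 ± 23.4 RPKM in wild-type samples. Per length, *etv5b* and *etv4* therefore overlapped in wild-type samples and were apart in Dlx3b/4b-depleted samples, where *etv5b* ranged from 104 to 120 RPKM and *etv4* from 46.8 to 65.4 RPKM. *etv5a* was the lowest of the 3 factors in mean level, with 37.7 ± 3.91 RPKM in Dlx3b/4b-depleted samples and 31.6 ± 1.72 RPKM in wild-type samples.

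**Figure D3:**
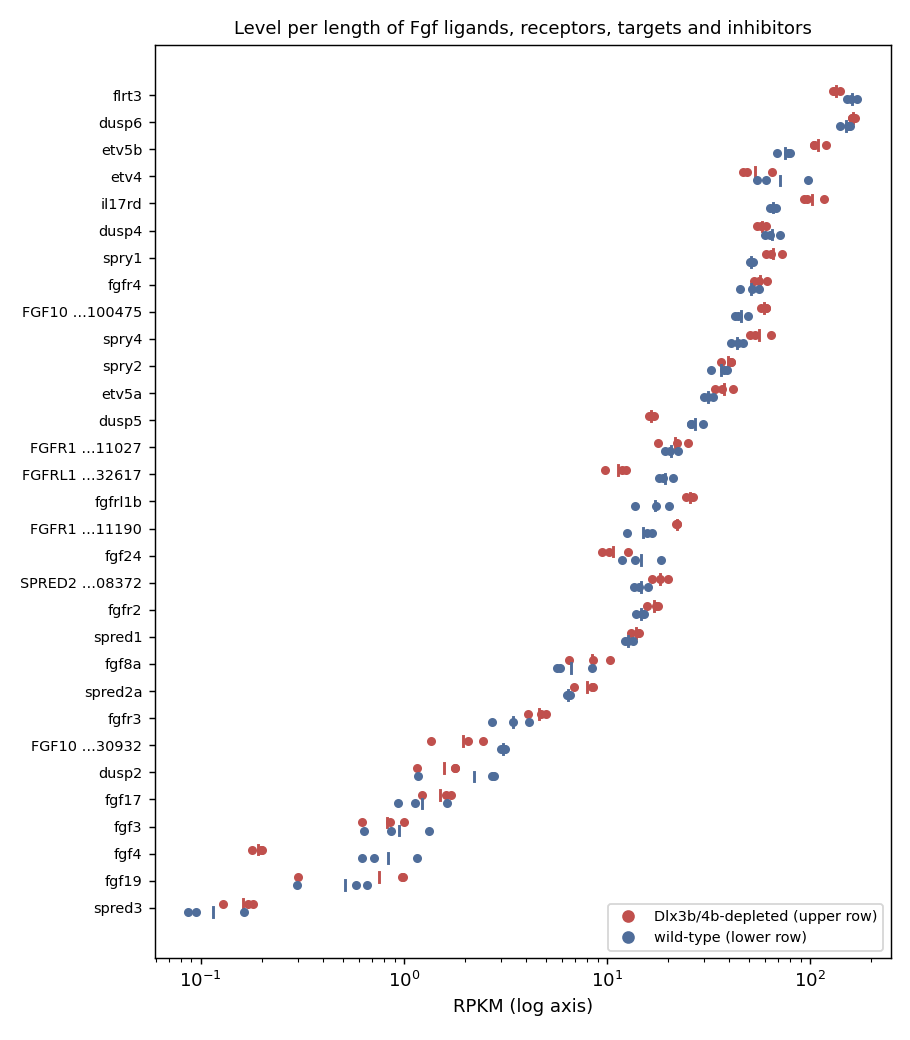
Levels per exon length (RPKM, log axis) of Fgf ligands, receptors, targets and inhibitors, in order of the wild-type mean, with Dlx3b/4b-depleted samples (red) above wild-type samples (blue) in each row and vertical ticks at the means. *flrt3* (135 and 160 RPKM) and *dusp6* (163 and 151 RPKM) are at the top, *fgf8a* (8.46 and 6.68 RPKM) lies below most receptors, and the inhibitors spread over the whole range, down to *spred3* at 0.161 and 0.115 RPKM. Genes that share a symbol carry the last digits of their identifier.

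Among the ligands, an FGF10 gene (ENSDARG00000100475) and *fgf24* were above *fgf8a* in mean level per length. The FGF10 gene had 59.7 RPKM in Dlx3b/4b-depleted samples and 45.55 RPKM in wild-type samples, and *fgf24* had 10.8 and 14.7 RPKM. The other ligands were below *fgf8a*, and 2 of the 8 tested ligand genes were called, where 10.9% of all tested genes were. *fgf4* was lower in Dlx3b/4b-depleted samples, with 0.625, 0.565 and 0.633 CPM in replicates 1, 2 and 3, against 3.67, 1.98 and 2.27 CPM in wild-type replicates 1, 2 and 3. These levels rest on 15 to 16 counts in Dlx3b/4b-depleted samples and 53 to 103 counts in wild-type samples. The difference of −2.07 ± 0.39 on the log2 scale (adjusted p = 0.0206, edgeR) was the largest in size among the tested genes of the list. One FGF10 gene (ENSDARG00000100475, chromosome 5) had 34.2, 32.5 and 34.4 CPM in Dlx3b/4b-depleted samples and 24.2, 25.1 and 27.8 CPM in wild-type samples. It was called higher (log2 fold change 0.39, adjusted p = 0.0979, edgeR), whereas the second FGF10 gene (ENSDARG00000030932, chromosome 21) had a log2 fold change of −0.69 that did not pass the threshold (adjusted p = 0.160, edgeR). *fgf3*, which acts with *fgf8a* in otic induction in zebrafish, had 1.17, 1.88 and 1.605 CPM in Dlx3b/4b-depleted samples and 1.64, 2.50 and 1.201 CPM in wild-type samples (log2 fold change −0.17, adjusted p = 0.835, edgeR). *fgf24* had 30.0, 22.4 and 24.4 CPM in Dlx3b/4b-depleted samples and 32.7, 44.0 and 28.3 CPM in wild-type samples, with a log2 fold change of −0.44 that did not pass the threshold (adjusted p = 0.180, edgeR). The second FGF8 gene (ENSDARG00000039615, chromosome 1) had 0 counts in all 6 samples and was not tested. By plain library totals, this allows up to 0.126 CPM in the shallowest library.

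Of the 7 receptor genes, 3 were called, 2 higher and 1 lower. Over all tested genes 10.9% were called, and 14.4% of those with a mean count above 1000. *fgfrl1b*, a receptor-like gene whose product lacks the kinase domain, had 94.9, 87.0 and 92.3 CPM in Dlx3b/4b-depleted samples and 72.4, 49.1 and 62.1 CPM in wild-type samples (log2 fold change 0.59, adjusted p = 0.0238, edgeR). The other receptor-like gene, FGFRL1 (ENSDARG00000032617), had 30.7, 37.4 and 38.7 CPM in Dlx3b/4b-depleted samples and 59.1, 66.2 and 56.6 CPM in wild-type samples (log2 fold change −0.77, adjusted p = 0.0110, edgeR). Both receptor-like genes were called, in opposite directions. An FGFR1 gene (ENSDARG00000011190) was higher, with 63.2, 62.6 and 63.7 CPM in Dlx3b/4b-depleted samples and 48.0, 35.8 and 44.9 CPM in wild-type samples (log2 fold change 0.57, adjusted p = 0.0313, edgeR). The other FGFR1 gene (ENSDARG00000011027), with a log2 fold change of 0.06, *fgfr2* (0.21), *fgfr3* (0.44) and *fgfr4* (0.16) did not pass the threshold, with adjusted p of 0.181 to 0.804 in edgeR. *fgfr4* had the highest level per length of the receptors, with 57.0 RPKM in Dlx3b/4b-depleted samples and 51.2 RPKM in wild-type samples.

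Among the 12 inhibitors, which include *dusp6*, 3 were called higher and 1 lower. The share called was 10.9% over all tested genes and 14.4% over those with a mean count above 1000. *il17rd*, whose product restrains Fgf receptor signaling at the membrane, had 352, 279 and 288 CPM in Dlx3b/4b-depleted replicates 1, 2 and 3, and 204, 191 and 197 CPM in wild-type replicates 1, 2 and 3. A difference of 0.63 ± 0.10 on the log2 scale (adjusted p = 0.0113, edgeR) was the largest rise among the tested genes of the list. The Sprouty genes *spry1* and *spry4*, intracellular antagonists of receptor tyrosine kinases, were called higher with smaller changes. *spry1* had 91.5, 76.0 and 80.8 CPM in Dlx3b/4b-depleted samples and 65.8, 64.1 and 63.2 CPM in wild-type samples (log2 fold change 0.36, adjusted p = 0.0831, edgeR). *spry4* had 159, 132 and 125 CPM in Dlx3b/4b-depleted samples and 116, 101 and 109 CPM in wild-type samples (log2 fold change 0.35, adjusted p = 0.0789, edgeR). Dlx3b/4b-depleted replicate 1 was the highest sample for *il17rd*, *spry1* and *spry4*, and for the summed nephric and paraxial mesoderm markers. The part of those markers in these values was not tested. Without this sample and without the replicate block, *spry1* (0.285, adjusted p = 0.162, edgeR) and *spry4* (0.25, adjusted p = 0.222, edgeR) were not called. *il17rd* was still called in that fit (0.525, adjusted p = 0.0224, edgeR). *spry2* was not called (log2 fold change 0.12, adjusted p = 0.579, edgeR). Dual-specificity phosphatases did not move as a group. *dusp5*, a nuclear phosphatase of Erk, was lower, with 25.0, 26.03 and 24.7 CPM in Dlx3b/4b-depleted samples and 39.5, 39.6 and 45.1 CPM in wild-type samples (log2 fold change −0.71, adjusted p = 0.0160, edgeR), whereas *dusp6*, *dusp4* (−0.16) and *dusp2* (−0.44) were not called, with adjusted p of 0.413 to 0.544 in edgeR.

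Within the cascade between receptor and nucleus, 1 of 16 genes was called, where 10.9% of all tested genes were. *gab1*, which encodes a docking protein downstream of receptor tyrosine kinases, had 119, 124 and 119 CPM in Dlx3b/4b-depleted samples and 178, 162 and 188 CPM in wild-type samples (log2 fold change −0.54, adjusted p = 0.0198, edgeR). *mapk3*, which encodes an Erk kinase, had a log2 fold change of 0.07 and did not pass the threshold (adjusted p = 0.728, edgeR). For *map2k1*, an exon overlaps the ribosomal protein gene RPL4 on the opposite strand, which had 66850 to 79179 counts, so its value is uncertain.

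**Figure D4:**
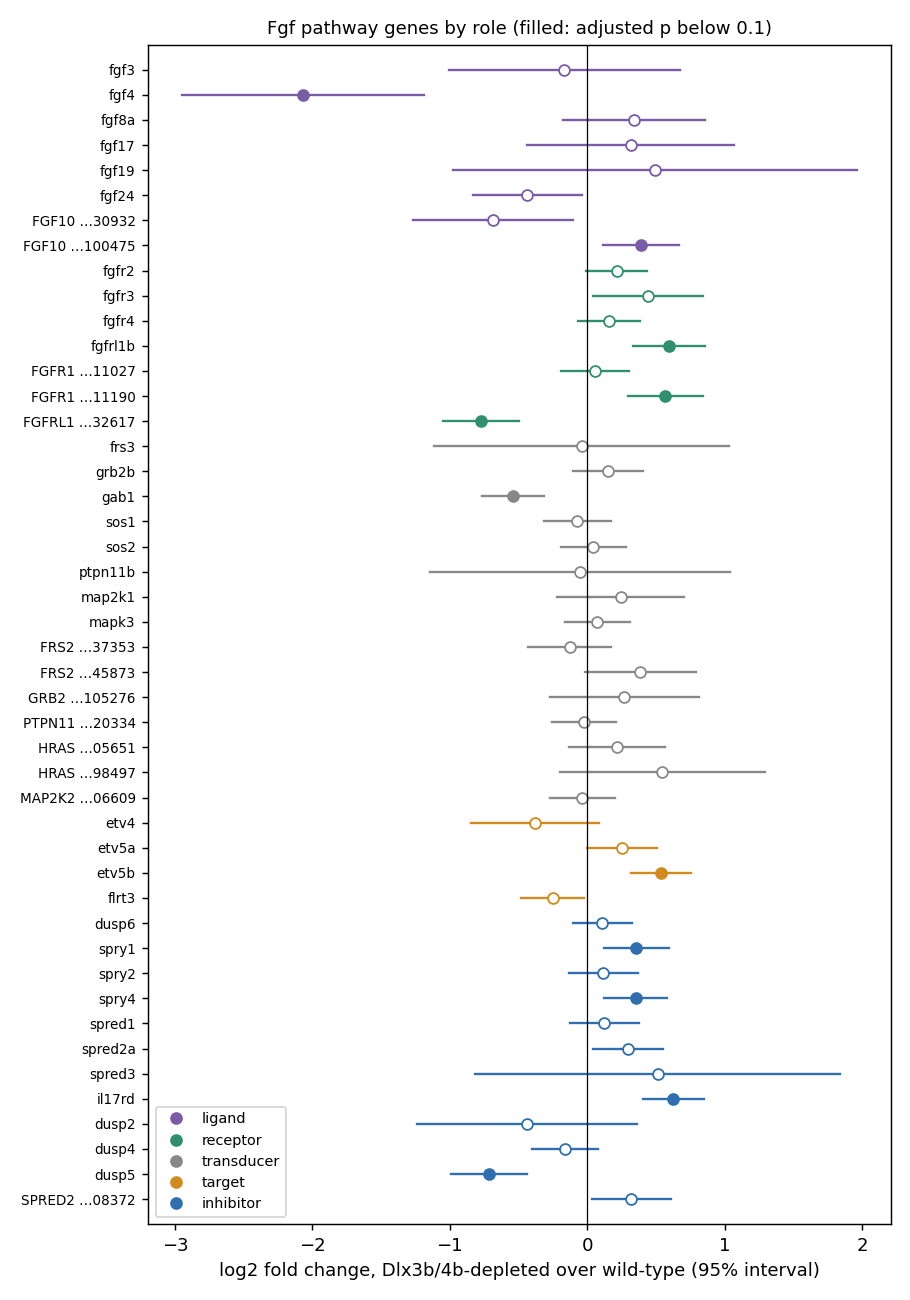
Log2 fold changes (Dlx3b/4b-depleted over wild-type) of 46 of the 47 tested Fgf pathway genes with 95% intervals, ordered and coloured by role, with filled points where the adjusted p was below 0.1. Filled points lie on both sides of 0, 7 above and 4 below. The position furthest to the left is *fgf4* at −2.07, and most transducers lie near 0.

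Over the whole list, 47 of the 48 matched genes passed the filter on low counts, and 11 of them (23.4%) were called, 7 higher and 4 lower. Across all tested genes, 10.9% were called, 4.85% higher and 6.05% lower, and 14.4% of those with a mean count above 1000 were called. The counts by role rest on few genes each. Neither they nor the share of the whole list were tested against these shares. The list was chosen with earlier results of these data known. The median of the mean counts in the list was 1349. The median log2 fold change of the list was 0.15, against −0.01 over all tested genes, with 30 values above and 17 below 0. The groups did not overlap for 20 genes (42.6%), 14 higher and 6 lower, against 31.5% of all tested genes. The share over all genes was not matched for counts, and the difference was not tested. None of the 11 called genes shares an exon position with another gene. Leaving out samples moved the number called. Without replicate 1 of both groups 0 of 47 genes were called (1.04% over all genes tested in that fit), with adjusted p of 0.156 to 0.568 for the 11 genes in edgeR, although their directions were kept. Without replicate 2 of both groups 7 genes were called (5.71% over all genes), and without replicate 3 of both groups 20 were (22.3% over all genes). Without Dlx3b/4b-depleted replicate 1 alone, and without the replicate block, 7 were called (5.42% over all genes). The other fits of that kind called 9 genes without Dlx3b/4b-depleted replicate 2 (5.15% over all genes) and 11 without Dlx3b/4b-depleted replicate 3 (7.74%). They called 8 without wild-type replicate 1 (7.05%), 12 without wild-type replicate 2 (10.8%) and 13 without wild-type replicate 3 (13.4%). The share called over all genes thus moved with the samples left out as well. Of the 9 fits with samples left out, *etv5b*, *il17rd*, *dusp5*, *fgf4*, *gab1* and FGFRL1 (ENSDARG00000032617) were called in 8 each, *fgfrl1b* and FGFR1 (ENSDARG00000011190) in 7 each, *spry1* in 5, FGF10 (ENSDARG00000100475) in 3 and *spry4* in 2.

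Genes with the most similar pattern over the 6 samples were taken from 11392 other genes with a mean count above 100, by Pearson correlation of log2 CPM. For *fgf8a* these were SURF4 (r = 0.99), *safb* (0.98) and MBOAT2 (0.98), and 13 genes reached 0.95. For *dusp6* they were WARS2, ACTL6A and ENSDARG00000100213 (r = 0.99 each), and 22 genes reached 0.95. None of these 6 genes was called, with adjusted p of 0.149 to 0.776 in edgeR. *etv4* was most similar to COPS9 (r = 0.998). *atp5mj* had r = 0.99 with *etv4*, and 132 genes reached 0.95. *etv5b* was most similar to TGIF1, RNF20 and zgc:162944 (r = 0.99 each), and 104 genes reached 0.95. With 6 samples and this many genes, high correlations arise in number, and the points share library and depth.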

How the data were processed

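RNAseq of FAC-sorted cells was analysed for 3 Dlx3b/4b-depleted and 3 wild-type samples, grouped by the sample titles. The authors deposited raw counts per Ensembl gene, made with GSNAP and featureCounts from uniquely aligned reads, without normalization. The submitters' processing notes list featureCounts 1.5.2 and the GRCz10 genome, whereas the methods name a later build, and the table names none, so coordinates are those of the deposited table. The notes on library preparation differ too (a directional kit or Smart-seq2), and whether counting used the strand is not given in the sources used here. The 92 spike-in features had 0 counts and were left out. Gene names came from a name table that covered 26433 of 32266 identifiers. A symbol with a copy letter was matched to the bare symbol where the table had no more such genes than the list.

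Counts were tested with edgeR 4.0.16 in R 4.3.3 over all genes (TMM scaling, low counts removed with filterByExpr, and the quasi-likelihood test). Genes with a Benjamini-Hochberg adjusted p below 0.1 were called, and error ranges on log2 differences are standard errors. The replicate number was a block, as the methods modelled the clutch together with the treatment. Standard errors were the fold change divided by the square root of F. CPM and RPKM used TMM-scaled totals, and log2 CPM a prior count of 2. The code was tested on simulated counts. Alternatives were no block, DESeq2 1.42.0 with and without it, RLE, other filters, an adjusted p below 0.05, no mitochondrial counts, and samples left out. Samples were left out either as a replicate number in both groups, with the block kept, or as a single sample, with no block. Figures used matplotlib 3.10.9.

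The genes named are those of the rule, the called genes of the Fgf list, and for each of the 4 identifiers the 3 genes of highest correlation. Others are given where a comparison needs them, chosen after their values were seen. The members and lists were chosen with earlier results of these data known. A few genes of the lists are not reported here. No sequence table was used here.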

Additional observations from a re-analysis of the deposited data

How the results depend on the processing

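*fgf8a* and *dusp6* kept their direction and were not called under any of the 17 alternatives, with log2 fold changes of 0.09 to 0.70 and 0.06 to 0.16. The *etv5b* value ranged from 0.469 to 0.605 when samples were left out (0.514 and not called without replicate 1 of both groups), and that of *etv4* from −0.67 to −0.029 (−0.029 without replicate 2 of both groups). With no filter on low counts *etv4* was called (−0.37, adjusted p = 0.0801, edgeR), and the cause was not tested. Over all genes 1911 were called, against 997 at an adjusted p below 0.05, 2959 with DESeq2 and no block, and 185 to 3955 when samples were left out. Among those fits, 1009 genes were called without replicate 2 of both groups. With no block, 985 were called without Dlx3b/4b-depleted replicate 1 (7 of the Fgf list), 932 without Dlx3b/4b-depleted replicate 2 and 1263 without wild-type replicate 1. For the Fgf list the 11 calls became 0 to 20 in those fits and 8 to 16 under the other alternatives. The edgeR fit of all samples without the replicate block called 2405 genes, 12 of them in the Fgf list (*flrt3* in addition). Its log2 fold changes were 0.34 (*fgf8a*), 0.11 (*dusp6*), −0.41 (*etv4*) and 0.54 (*etv5b*). Deviations from the group means correlated between same-numbered samples at r = 0.156, 0.055 and −0.143, and 3 of 6 samples correlated best with their own number. With so few samples, these values cannot decide whether same-numbered samples shared a clutch. Of the called genes at an adjusted p below 0.05, *spry1*, *spry4* and FGF10 (ENSDARG00000100475) no longer passed. In a fit without 1 sample of a group, the spread was pooled over both groups. Plain library totals moved the mean RPKM values of *fgf8a*, *dusp6*, *etv4* and *etv5b* by less than 1 SD, and other genes were not checked. Fewer than 20 counts per sample in Dlx3b/4b-depleted samples limit the precision for *fgf4*.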
